A study of Mus musculus with 6 samples.

Results

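The genes described here are 36 members of the Notch pathway and of the basic helix-loop-helix (bHLH) families that act with it, out of 17865 named genes on the array. They were chosen by gene symbol, and every probe carrying one of these symbols was taken, which gave 42 of 31769 gene probes. The members are 4 Notch receptors, 5 ligands, 7 modulators and nuclear effectors, 6 Hes and Hey repressors, 4 Id genes and 10 proneural and neuronal bHLH factors. Notch3 had 3 probes, and Dll3, Maml1, Rbpj and Atoh1 had 2 each. In a comparison of Pitx3 mutant with wild-type ventral midbrain, none of the 36 genes passed the test over all probes. The largest mean ratio was that of Lfng, which was positive in pools 1 and 2 of the mutant tissue and slightly negative in pool 3.

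Notch is a membrane receptor that is cleaved when a ligand on a neighbouring cell binds it, and its inner part then enters the nucleus and joins the DNA-binding protein Rbpj. In the embryonic neural tube this switches on Hes repressors, which keep a progenitor from becoming a neuron. Proneural bHLH factors such as Neurog2 act in the opposite way: they start neuronal differentiation and raise the ligand Dll1, which signals to neighbouring cells. Neurog2 is known to be needed for the normal generation of midbrain dopaminergic neurons in the mouse. Id proteins bind bHLH partners without binding DNA and so hold proneural factors back.

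The mutant tissue was ventral midbrain of Pitx3-/- mouse embryos at embryonic day 14.5, in 3 pools of 3 midbrains each. Pitx3 is a homeobox factor of midbrain dopaminergic neurons. The wild-type RNA was made from 10 Pitx3+/+ ventral midbrains of that age and served as the common reference on all 6 arrays. Each mutant pool was hybridised to 2 spotted oligonucleotide arrays, once labelled with Cy5 and once with Cy3. Strain, sex and the way the Pitx3 allele was made are not stated in the labels. Since all wild-type embryos went into 1 RNA, the test of a ratio against 0 leaves out the spread among wild-type embryos. In whole tissue, fewer cells of a type and less RNA per cell cannot be told apart.

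Values are log2 ratios of mutant over reference. Each pool's value is the mean of its 2 arrays, and means ± SD are over 3 pools. An offset of 50 was added to every background-corrected signal, which pulls ratios towards 0, most of all for dim spots. The median spot signal was 70.6 to 77.5 in Cy5 and 46.2 to 50.4 in Cy3. In the mutant channel 46.1% to 51.7% of gene probes exceeded the mean local background by 2 of its SDs, which is called above background here. The dopaminergic genes Th, Ddc, Nr4a2 and Slc18a2 were above background on all 6 arrays in both channels, while Pitx3 itself was on none, so its probe does not check the genotype. Pool 3 stood apart from the others. With all 3 pools limma called 0 of 31769 probes at an adjusted p under 0.05 (1548 at an unadjusted p under 0.05), whereas pools 1 and 2 alone gave 1543, and leaving out pool 1 or pool 2 gave 0.

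Of the 36 genes, 23 had a probe above background on all 6 arrays in at least 1 channel. Rfng, Heyl, Hey1 and Rbpj were above background on some arrays. Notch2, Notch4, Jag1, Hes5, Hes6, Neurog1, Neurod4, Nhlh1 and Nhlh2 were above background on none, so their ratios, between -0.0072 and 0.021, say nothing about these transcripts. Hes5, a standard readout of Notch activity in neural progenitors, is thus not measured.

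Promoter sequences were read for some of the members, so that the sites through which Notch and bHLH proteins bind can be seen beside the values. They are the 250 bases before the annotated start, from RefSeq on assembly GRCm38.p6, printed 5′ to 3′ in the direction of the gene. Lfng, Numbl, Notch1 and Id3 are those that passed without pool 3 and had an entry, and Hes5 is shown as a known Notch target. Capitals mark the Rbpj core TTCCCA, on either strand, and the E-box CANNTG that bHLH dimers bind.
Lfng, chr5:140607091-140607340, plus strand: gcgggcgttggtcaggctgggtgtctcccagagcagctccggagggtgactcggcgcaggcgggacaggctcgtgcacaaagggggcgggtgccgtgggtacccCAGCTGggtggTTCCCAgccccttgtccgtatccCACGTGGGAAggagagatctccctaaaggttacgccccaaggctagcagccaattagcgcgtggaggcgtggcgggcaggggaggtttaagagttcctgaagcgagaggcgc
Numbl, chr7:27258511-27258760, plus strand: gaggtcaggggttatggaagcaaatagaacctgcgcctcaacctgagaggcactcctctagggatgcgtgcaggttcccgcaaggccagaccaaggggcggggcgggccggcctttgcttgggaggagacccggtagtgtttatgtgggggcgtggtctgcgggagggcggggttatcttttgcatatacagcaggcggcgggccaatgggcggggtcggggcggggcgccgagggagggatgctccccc
Notch1, chr2:26503823-26504072, minus strand: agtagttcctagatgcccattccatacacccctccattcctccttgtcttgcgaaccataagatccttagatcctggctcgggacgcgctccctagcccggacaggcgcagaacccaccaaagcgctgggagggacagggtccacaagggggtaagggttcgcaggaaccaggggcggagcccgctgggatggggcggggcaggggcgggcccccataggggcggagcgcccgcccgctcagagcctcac
Id3, chr4:136143572-136143821, plus strand: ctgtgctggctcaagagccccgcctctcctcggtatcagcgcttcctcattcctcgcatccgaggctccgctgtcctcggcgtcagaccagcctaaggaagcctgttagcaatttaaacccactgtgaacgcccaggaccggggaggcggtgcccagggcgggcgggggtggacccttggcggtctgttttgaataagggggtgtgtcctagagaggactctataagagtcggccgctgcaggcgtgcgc
Hes5, chr4:154960673-154960922, plus strand: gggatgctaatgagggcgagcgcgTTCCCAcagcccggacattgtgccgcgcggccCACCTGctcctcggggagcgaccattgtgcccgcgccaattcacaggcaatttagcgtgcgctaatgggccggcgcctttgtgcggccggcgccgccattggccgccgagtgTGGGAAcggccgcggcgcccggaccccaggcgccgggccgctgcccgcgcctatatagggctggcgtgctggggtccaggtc
The Lfng window holds 2 Rbpj cores, whose first bases lie at -135 and -108 from the start, and E-boxes at -146 and -112. The second E-box, CACGTG, overlaps the second core. Hes5 also has 2 cores and 1 E-box. The windows of Numbl, Notch1 and Id3 hold neither motif, which says only that these letters are not in these bases.

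Promoters were on file for 31 members, which excludes Hes1, Hey1, Heyl, Id1 and Mfng. At least 1 Rbpj core was present in 7 of 31 (22.6%), beside 21.5% of all 27025 promoters. At least 2 cores were present in 4 of 31 (12.9%), namely Lfng, Hes5, Rbpj and Nhlh2, beside 2.85% of all. An E-box was found in 17 of 31 (54.8%), beside 66.0% of all. The N-box CACNAG, a site of Hes proteins, was found in 10 (32.3%, beside 36.7%). The class C site, which Hes and Hey proteins also bind, was searched as CACGNG and found in 14 (45.2%, beside 23.7%). This pattern also takes in CACGTG, as in Lfng, and CACGGG, as in Hes6. The 27025 promoters were not matched to the members in base content. Motifs were searched on both strands and overlap, as CACGAG is both an N-box and a class C site. These matches describe the letters and are no evidence of binding.

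At an unadjusted p under 0.05, there were 2 of 42 member probes (4.76%) in limma's test, Id3 and Heyl, both above 0. Over all probes the share was 4.87%, with 2.46% higher and 2.41% lower, so the members' share was near the background. The lowest adjusted p of any member was 0.908. Of the 36 genes, 22 had a mean ratio above 0 and 14 below, beside 9000 and 8865 of all genes. This count takes in the genes above background on no array. Among the 23 members above background on all 6 arrays, 12 were above 0 and 11 below, beside 4561 and 4875 of all such genes. The members' median was 0.0048 and that of all genes 0.0002. Among the 23 genes above background, mean ratios ran from -0.036 for Id4 to 0.17 for Lfng. In 22 of these 23 the 95% interval of the mean lay within 0.25 of 0, which is 1.19-fold on this offset scale, and Lfng was the exception. No member probe had the same sign on all 6 arrays, which was seen for 1.28% of all probes on the higher side and 1.34% on the lower.

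**Figure D1:**
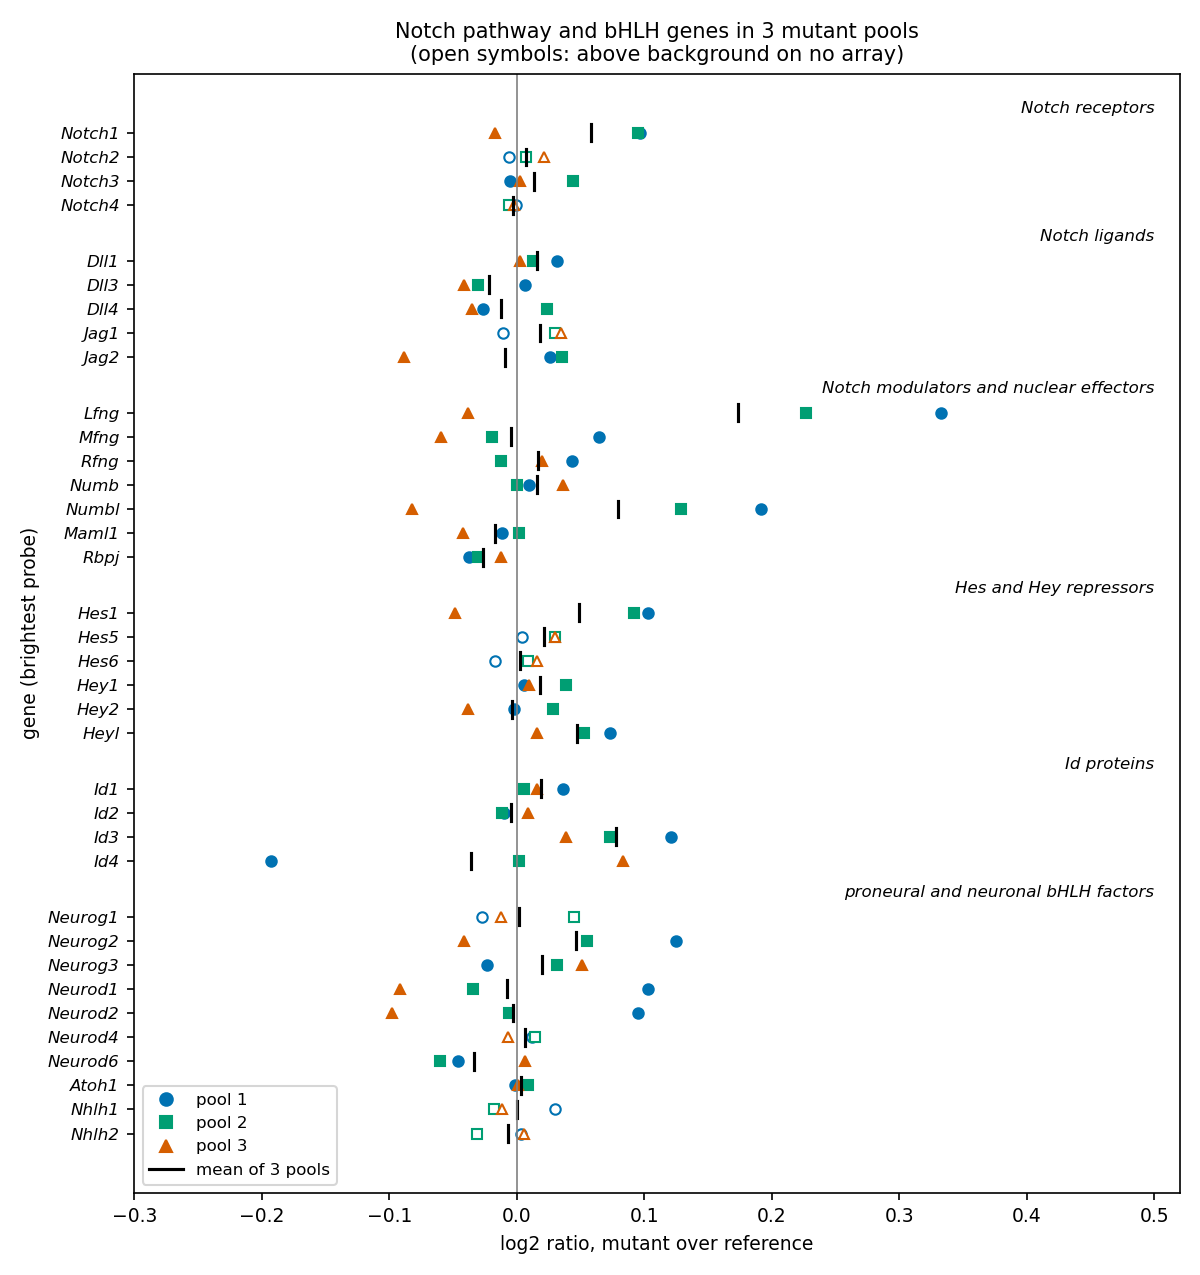
Log2 ratio of mutant over reference (horizontal axis) for each of the 36 genes (vertical axis, grouped by role), with 1 point per pool and a bar at the mean of 3 pools; open symbols mark genes above background on no array. Most genes stay close to 0, and Lfng reaches from -0.038 in pool 3 to 0.33 in pool 1.

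Among the receptors, only Notch1 and Notch3 were measured above background. Notch1, the main receptor of neural progenitors, had ratios of 0.097 in pool 1, 0.095 in pool 2 and -0.017 in pool 3, a mean of 0.058 ± 0.066 and a fold of 1.04. Its value depended on the dye. With the mutant in Cy5 the ratios were 0.017, 0.026 and -0.050, and with the mutant in Cy3 they were 0.18, 0.16 and 0.015. Every Cy3 value thus lay above the Cy5 value of the same pool. The brightest Notch3 probe had ratios of -0.0052, 0.044 and 0.0023, and its other 2 probes were above background on no array.

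The ligands differed little from the reference. Dll1, the ligand that proneural factors raise in newborn neurons, had ratios of 0.032, 0.013 and 0.0029, a mean of 0.016 ± 0.015. Its sign changed with the dye in every pool. The ratios were -0.011, -0.075 and -0.086 with the mutant in Cy5 and 0.075, 0.10 and 0.092 in Cy3. Dll3, which acts inside the cell to dampen Notch signalling, was read by 2 probes with means of -0.022 ± 0.025 and 0.025 ± 0.037, opposite in sign and both within their spread. Dll4, known for its role in vessel sprouting, stood at -0.013 ± 0.032. Jag2, of the Serrate-like ligands, had ratios of 0.026, 0.036 and -0.089, and was below 0 on both arrays of pool 3.

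Lfng encodes Lunatic fringe, a Golgi enzyme that adds a sugar to Notch and so changes which ligands it answers to. Its ratios were 0.33 in pool 1, 0.23 in pool 2 and -0.038 in pool 3. The mean was 0.17 ± 0.19, a fold of 1.13 with a 95% interval from 0.989 to 1.29, and the unadjusted p was 0.0644. The dye-swapped arrays of a pool lay close together: 0.31 and 0.36 in pool 1, 0.21 and 0.24 in pool 2, and -0.011 and -0.065 in pool 3. Pools 1 and 2 therefore did not overlap with pool 3 on any array. The range over the pools was at least 0.3 for no other member probe and for 1.12% of all probes. Without the offset the mean was 0.30. Where arrays were only centred on their median, with no loess fit, it was 0.11.

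The other modulators were nearer to 0. Numbl, a relative of the Notch inhibitor Numb, had ratios of 0.19, 0.13 and -0.082, a mean of 0.079 ± 0.14. It followed the same order of pools as Lfng, with both arrays of pools 1 and 2 above 0 and both arrays of pool 3 below. Its ratios were lower with the mutant in Cy5 (0.13, 0.095 and -0.10) than in Cy3 (0.25, 0.16 and -0.063). Its mean was 0.022 with median centring. Numb stood at 0.016 ± 0.019. The remaining fringe genes, Mfng and Rfng, stood at -0.0048 ± 0.063 and 0.017 ± 0.028, against which the Lfng values stand out in pools 1 and 2 only. Maml1, a coactivator in the nuclear Notch complex, stood at -0.017 ± 0.022. The brighter Rbpj probe had ratios of -0.038, -0.030 and -0.012, but it was above background on 1 reference array and no mutant array.

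Among the Hes and Hey repressors, Hes1 and Hey2 were above background on all arrays. Hes1 had ratios of 0.10, 0.092 and -0.048, a mean of 0.049 ± 0.084. As for Notch1, the dye mattered: the mean over pools was -0.052 with the mutant in Cy5 and 0.15 with the mutant in Cy3, so the direction changes with the dye. Hey2 stood at -0.0040 ± 0.033. Heyl had ratios of 0.073, 0.052 and 0.016 and a mean of 0.047 ± 0.029, with an unadjusted p of 0.031. It was dim, above background on 5 mutant and 4 reference arrays. With the mutant in Cy5 its ratios were 0.11, 0.080 and 0.055, and in Cy3 they were 0.034, 0.025 and -0.024, lower in every pool. The mean was 0.026 with median centring and 0.25 without the offset.

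**Figure D2:**
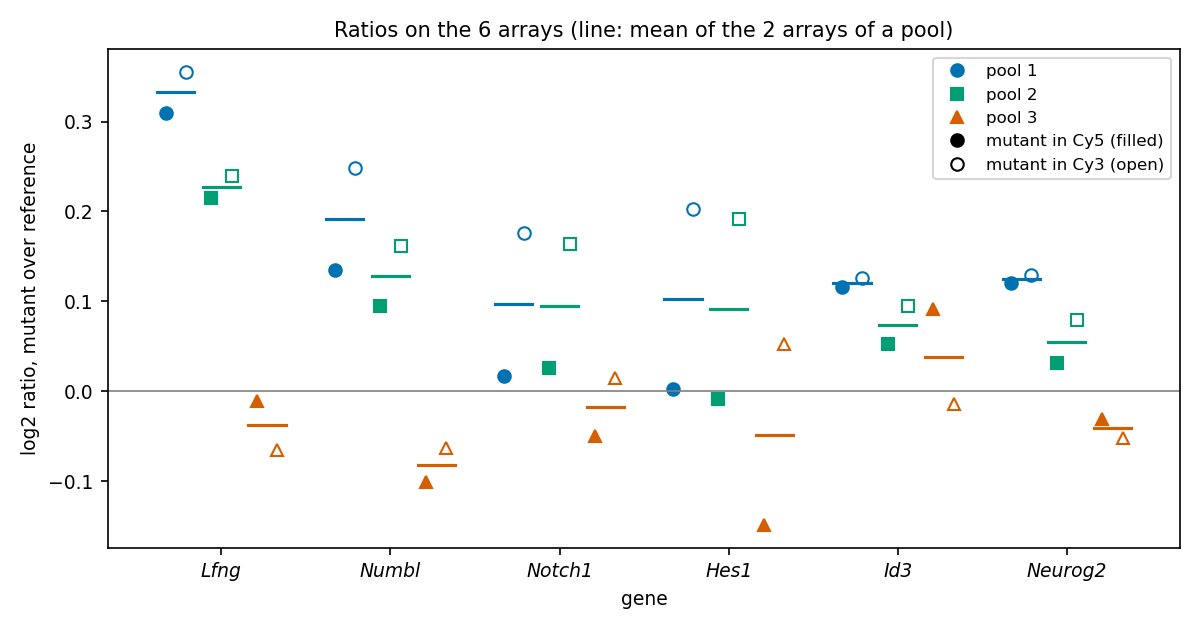
Log2 ratio of mutant over reference (vertical axis) on each of the 6 arrays for single genes, by pool, with filled points for the mutant in Cy5 and open points for the mutant in Cy3. For Lfng the arrays of a pool lie together, whereas for Hes1, Notch1 and Numbl the open points lie above the filled ones in every pool.

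The Id genes code for inhibitors of bHLH proteins and are high in dividing progenitors and in vessels. Id3 had ratios of 0.12, 0.073 and 0.038, with pool 3 the lowest, and 5 of 6 arrays were above 0. Its mean was 0.078 ± 0.041, a fold of 1.06 with a 95% interval from 1.02 to 1.09, and its unadjusted p of 0.0106 was the lowest among the members. The mean was 0.22 without the offset and 0.043 with median centring. Id4 had ratios of -0.19, 0.0019 and 0.084 and so ran in the opposite order, with pool 1 the lowest. Id1 and Id2 stood at 0.019 ± 0.016 and -0.0042 ± 0.012.

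The spots of Id3 and Id4 differed in brightness between arrays in both channels, although the reference RNA was the same. The reference signal of Id3 in Cy5 was 99 in pool 1, 91 in pool 2 and 402 in pool 3, over a local background of 58.2 to 60.8. In Cy3 it was 57, 55 and 130. The mutant signal in Cy5 was 102, 90 and 298. The ratios of Id3 in pools 1 and 2 thus come from dim spots and that of pool 3 from bright ones. The reference signal of Id4 in Cy5 was 1764, 1451 and 512, so its spots were dimmest in pool 3. The normalised brightness of a spot ranged over at least 1 log2 unit between arrays for these 2 of the 24 member probes above background, and for 6.22% of all such probes. In the other 22 member probes the range was at most 0.63. What made the spots differ was not tested.

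**Figure D3:**
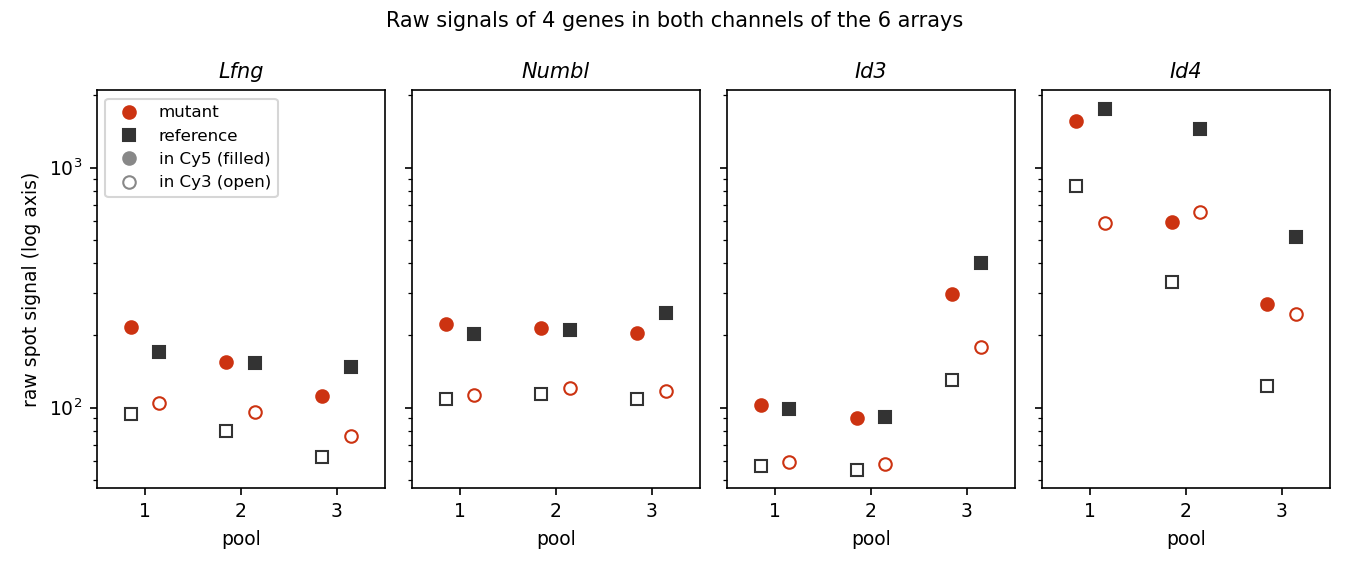
Raw spot signal on a log axis for Lfng, Numbl, Id3 and Id4 in both channels of the 6 arrays, by pool (horizontal axis), with circles for mutant, squares for reference, filled for Cy5 and open for Cy3. For Id3 both channels are brightest in pool 3, with reference signals of 402 and 130 against 91 to 99 and 55 to 57 in the other pools.

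The proneural and neuronal bHLH factors showed no difference past the test. Neurog2 had ratios of 0.13, 0.055 and -0.041, a mean of 0.046 ± 0.084, and so lay above 0 on all arrays of pools 1 and 2 and below 0 on both arrays of pool 3. With median centring its mean was -0.040. Neurod1, a factor of early neuronal differentiation, had ratios of 0.10, -0.035 and -0.092. Neurod2, which acts later in neuronal maturation, had 0.095, -0.0062 and -0.098, and both thus ran from highest in pool 1 to lowest in pool 3 with means near 0. Neurod6, which marks a subset of neurons of the ventral tegmental area, stood at -0.033 ± 0.035. Its mean over pools was -0.12 with the mutant in Cy5 and 0.056 in Cy3, so its direction changes with the dye. Neurog3 and Atoh1, known mainly from the pancreas and gut and from the hindbrain and inner ear, stood at 0.020 ± 0.039 and 0.0030 ± 0.0053.

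**Figure D4:**
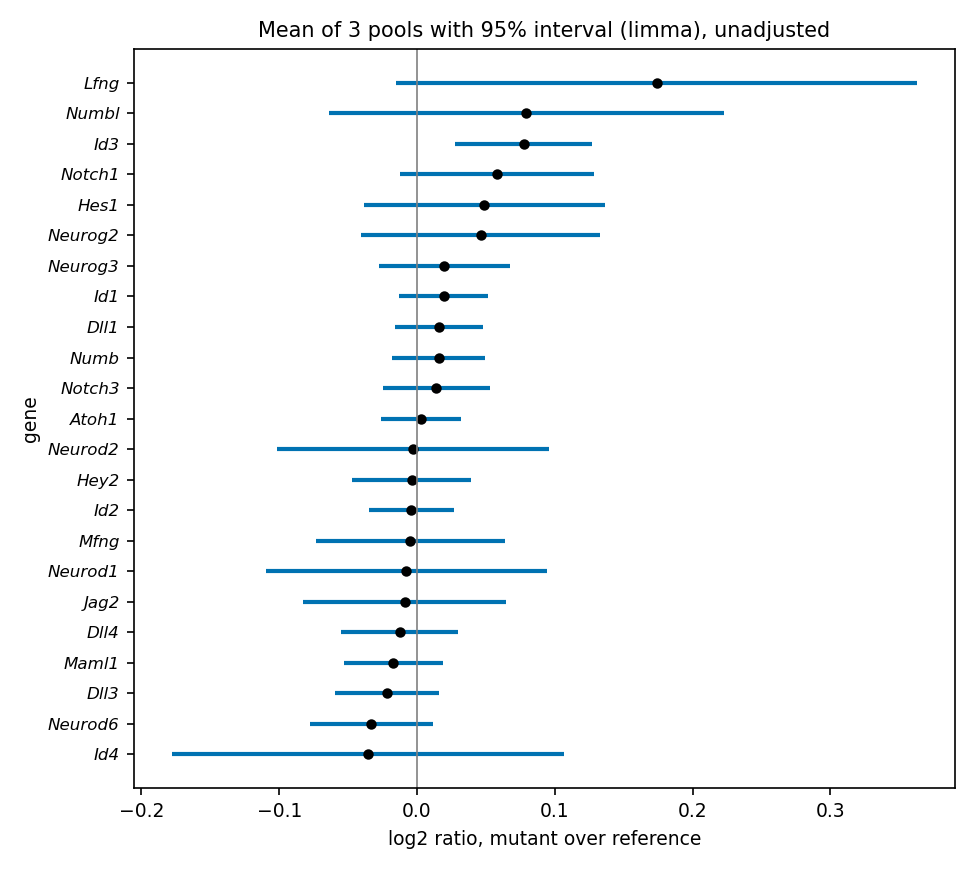
Mean log2 ratio of mutant over reference (horizontal axis) with its 95% interval from the limma fit for the members above background on all 6 arrays, in order of the mean. All intervals lie between -0.18 and 0.36, and that of Id3 leaves out 0 before any adjustment.

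With pools 1 and 2 alone, limma called 5 of 42 member probes (11.9%) at an adjusted p under 0.05, all higher in the mutant. Over all probes the share was 2.01% higher and 2.85% lower, 4.86% in all. Among probes above background on all 6 arrays it was 4.55% higher, beside 5 of 24 member probes (20.8%). The called members were Lfng (adjusted p = 0.00713, fold 1.21), Numbl (0.014, fold 1.12), Hes1 (0.0263, fold 1.07), Notch1 (0.0264, fold 1.07) and Id3 (0.038, fold 1.07). Neurog2 had an adjusted p of 0.0717 and was not called. Pool 3 was left out with its difference already known, so these calls describe pools 1 and 2 and are no test of the members. They rest on 2 pools with 1 residual degree of freedom. The calls of Notch1, Hes1 and Numbl rest on pool means that join unequal dyes, and the Cy5 ratios of Hes1 in pools 1 and 2 were 0.0028 and -0.0082. In pool 3, 4 of the 5 had ratios below 0, and Id3 was above. Of the 23 members above background, 6 (26.1%) were above 0 in pools 1 and 2 and below 0 in pool 3, beside 22.9% of all such genes, so this order of pools was about as common among the members as elsewhere. The pools share 1 reference.

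**Figure D5:**
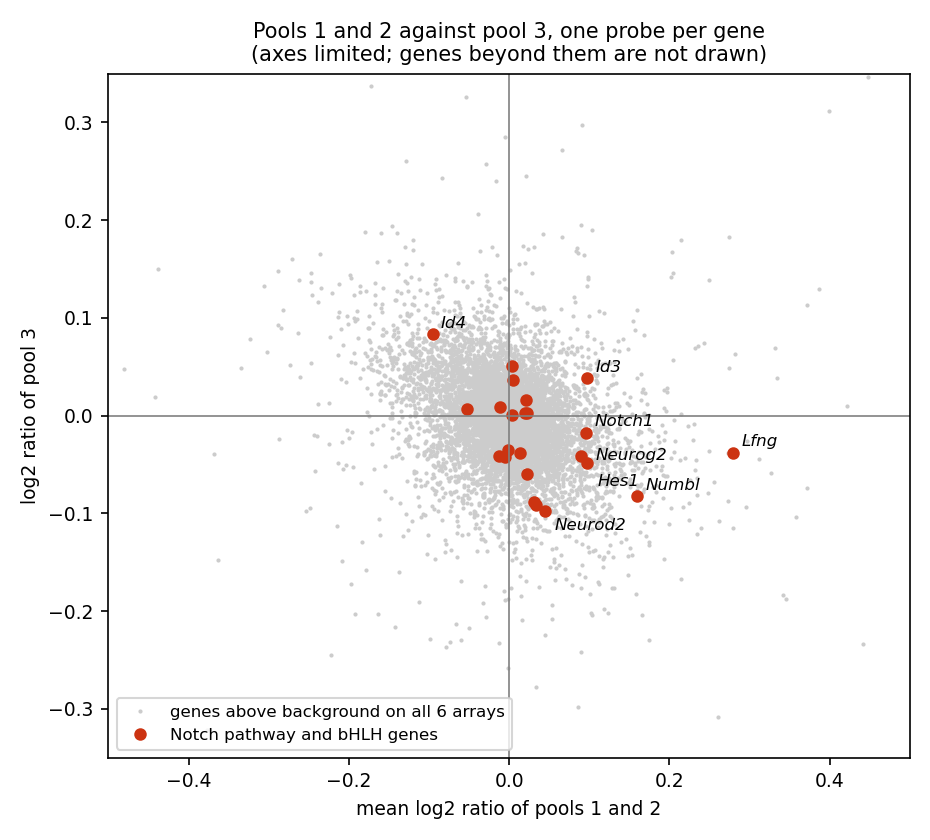
Log2 ratio in pool 3 (vertical axis) against the mean of pools 1 and 2 (horizontal axis), with red points for the 23 members and grey points for all named genes above background on all 6 arrays (genes beyond the axes are not drawn). Lfng and Numbl lie to the right at 0.28 and 0.16 and below 0 in pool 3.

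Further genes of the pathway were followed by list. Of 20 measured genes for Notch processing and trafficking, none passed over all probes. The lowest p values were those of Neurl1a, an E3 ligase related to fly neuralized, at 0.054 ± 0.015, Aph1a, a subunit of gamma-secretase, at -0.032 ± 0.0071, and Fbxw7, which targets active Notch for degradation, at 0.053 ± 0.057. Neurl1a was dim, above background on 3 mutant and 3 reference arrays. Without pool 3, Dtx1 passed as higher and Itch as lower. Dtx1 encodes a Deltex ubiquitin ligase and had ratios of 0.12, 0.13 and -0.069. Itch, also a ubiquitin ligase, had -0.15, -0.084 and 0.020. Both were singled out after their values were seen.

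Of 25 measured nuclear cofactors and feedback genes, none passed. Kat2b, a histone acetyltransferase, stood at -0.075 ± 0.035 and was below 0 in every pool. The corepressor gene Ctbp2 had ratios of 0.093, 0.082 and -0.012, and Bhlhe40, a bHLH repressor, stood at 0.030 ± 0.024. Without pool 3, Ctbp1 and Ctbp2 passed as higher and Kat2b as lower. Ctbp1, named after its values were seen, had 0.13, 0.12 and -0.064.

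All 7 non-canonical ligands were measured and none passed. Dlk1, which encodes a membrane protein of the Delta family that lacks the DSL domain by which ligands activate Notch, had ratios of 0.12, 0.20 and 0.11, with pool 3 close to pool 1. Its unadjusted p was 0.00172 and its adjusted p 0.904. Cntn6, a contactin reported to bind Notch, stood at -0.060 ± 0.040, and Dner stood at 0.013 ± 0.031. Without pool 3 only Dlk1 passed, as higher.

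Of 19 other bHLH and E protein genes, none passed, and none had an unadjusted p under 0.05. Tal1, a bHLH factor of blood cells and of midbrain GABAergic neurons, had ratios of 0.33, 0.42 and -0.074, also above 0 in pools 1 and 2 and below 0 in pool 3. It passed as higher without pool 3 (adjusted p = 0.00291). Twist1 stood at 0.029 ± 0.028 and Ferd3l at 0.020 ± 0.0057.

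Markers of the cells that express these genes were read beside them. All 11 neural progenitor markers were measured, 6 of them above background on all arrays, and Sox1, Sox3 and Pax6 were above background on none. None of the 11 passed over all probes. Their median ratio was 0.036 in pool 1, 0.0027 in pool 2 and -0.026 in pool 3. Their summed level in the mutant, on the normalised linear scale, was 5629, 4957 and 4547, against 5344, 5064 and 4772 in the reference channel. This sum mainly follows Fabp7, whose mean log2 intensity was 11.9, beside 8.74 for Sox2, the next brightest. The brightest were Fabp7, with ratios of 0.073, -0.063 and -0.087, and Sox2, with -0.10, -0.055 and -0.026. Of the others, Nes had 0.33, 0.26 and -0.093 and Slc1a3 had 0.39, 0.20 and -0.026. Vim had 0.14, 0.11 and -0.065. These 3, named after their values were seen, passed as higher without pool 3. They have the order of pools seen for Lfng and Numbl, while Sox2 and Prom1 (0.086, 0.052 and 0.050) stayed on 1 side of 0. Prom1 was dim, above background on 4 mutant arrays and 1 reference array. The part of the progenitor markers in the Lfng and Numbl values was not tested.

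The 11 markers of postmitotic neurons had medians of 0.023, 0.037 and 0.035 in the 3 pools. Stmn2 stood at 0.061 ± 0.036 and Snap25 at 0.041 ± 0.085. At an unadjusted p under 0.05 in limma's test, 4 of the 11 were higher and 0 lower, beside 2.46% and 2.41% of all probes. These 4 were Stmn2, Nefl, Elavl4 and Nefm, each above 0 in every pool, and none passed over all probes. Of 9436 genes above background on all 6 arrays, 432 were higher and 499 lower by this count. It was not limited to neurons: 2 of 9 endothelial and 2 of 8 microglial markers were higher and 0 lower. Pericyte, meningeal and erythroid markers had 0 in both directions. The order of pools was not limited to progenitor markers: Elavl3 had 0.16, 0.12 and -0.13 and passed as higher without pool 3 (adjusted p = 0.0143), and Tubb3 had 0.098, 0.037 and -0.088. Both were named after their values were seen. Gap43 passed as lower without pool 3, with -0.16, -0.093 and 0.078. Endothelial cells also use Notch, and 9 of 10 of their markers had medians of 0.018, 0.026 and 0.0051, with Tie1 at 0.028 ± 0.065 and Flt1 at 0.028 ± 0.061. Pericyte, meningeal and microglial medians over 3 pools were -0.0054, 0.0074 and 0.018. Their brightest members were Anpep and Kcnj8, Zic1 and Col1a2, and C1qb and Tyrobp. Of these, Zic1, which is also a neural gene, had ratios of -0.24, -0.18 and 0.089, opposite to Lfng in every pool. It passed as lower in limma's test without pool 3 (adjusted p = 0.00712). The 6 measured erythroid genes had a median of 0.064, with Hba-a1 at 0.20, -0.025 and 0.20 and Hbb-y at 0.11, 0.22 and -0.047. The 11 dopaminergic markers lay on both sides of 0, with 5 means above 0, 6 below and a median of -0.020. At an unadjusted p under 0.05 there were 3 higher and 5 lower. The brightest, En2 and En1, had ratios of 0.79, 0.90 and 0.68, and of 0.82, 0.86 and 0.39. The other higher marker was Foxa2, with 0.13, 0.34 and 0.069. The 5 lower markers, named like Foxa2 after their values were seen, were Slc18a2 (-0.38, -0.38 and -0.32), Aldh1a1, Slc6a3, Nr4a2 and Th. The ratios of Th were 0.021, -0.22 and -0.23, so it was lower in pools 2 and 3 only. Aldh1a1 and Slc6a3 were dim, above background on no mutant array and on 6 and 2 reference arrays. Slc18a2 had the lowest adjusted p of all probes, 0.187.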

How the data were processed

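The authors deposited scanner files with the intensity of each spot and its local background in both channels, and a table of log2 ratios equal to their derived ratios turned to mutant over reference. Per the labels, each array held a mutant pool and the wild-type reference, with dyes exchanged on the second array of a pool. No software versions are given in the sources used. From the intensities, limma 3.58.1 in R 4.3.3 corrected background with normexp (offset 50), fitted global loess (span 0.3, control spots at weight 0) and dropped 3223 control spots of 34992. No column of spot flags was found, so no spot was dropped for one. Ratios were averaged over the 2 arrays of a pool (n = 3) and compared with 0 by lmFit and eBayes. The residual degrees of freedom were 2, those of the prior 2.74. P-values were adjusted by Benjamini-Hochberg over 31769 probes. Nothing says how the pools' embryos were grouped, so p-values measure only the spread between pools. The number of arrays limits the precision.

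Symbols came from the platform table: 26000 probes had 1 and 5769 none. They were updated through RefSeq genes of GRCm38.p6, which held 23070 as current symbols and 2865 as synonyms, and 65 stayed as found. Lists used the probe of a gene with the highest mean intensity. The members and lists were chosen with earlier results of these data known. Values are given for members with an unadjusted p under 0.05 or a range over pools of at least 0.3. Some that meet neither rule, among them Notch1, Hes1, Numbl and Neurog2, are also given by pool. Those were picked with their values known, and the remaining members are described more briefly. Up to 3 genes with the lowest p of each pathway list and the 2 brightest of each marker list are named. Only the limma test was tried on simulated pool ratios with known changes, and the steps before it were not simulated.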

Additional observations from a re-analysis of the deposited data

Results flagged for a closer look

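On 1 of 42 member probes an array lay far from the other 5. The Neurod4 probe had a log2 ratio of -0.045 in pool 3 with the mutant labelled Cy5, and the nearest other array had 0.0070. This distance is 0.679 of the range over 6 arrays, above Dixon's 95% limit. About 1 in 20 probes would be marked by chance, and Neurod4 was above background on no array.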

How the results depend on the processing

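The number of probes called over all probes was 0 in the analysis as reported. It was 18 when the 6 arrays were fitted with a dye effect and pools as random blocks, 11 with an intensity trend, 312 with the mutant in Cy5 only and 430 with the mutant in Cy3 only, and between 0 and 1543 with a pool left out. The number of called members was 0 under each of these except with a pool left out, where it was between 0 and 5. The number of member probes at an unadjusted p under 0.05 was 2 of 42 as reported. It was 6 with median centring (14.3%, beside 15.6% of all probes), 4 with the block (9.52%, beside 6.45%) and 5 with the trend (11.9%, beside 5.05%). It was 8 with Cy5 only (19.0%, beside 22.6%), 11 with Cy3 only (26.2%, beside 22.0%) and 1 of 24 among probes above background on all arrays (4.17%, beside 5.35%). With a pool left out it was between 0 and 9, the highest without pool 3 (21.4%, beside 15.7%). The filter on dim probes tests fewer genes, and Heyl is among those it removes; the cause was not tested for the others. The members' median ratio of 0.0048 was 0.031 without the offset and between 0.0052 and 0.013 with a pool left out. No called member changed direction, as none was called. With median centring, 7 of 36 members changed the sign of their mean ratio, and 13 and 15 did with Cy5 or Cy3 alone. No paired analysis was possible because all mutant pools were read against 1 reference RNA. One reference and 3 pools limit all results, and dim spots limit 13 of the 36 genes.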

Other observations

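Genes read by several probes allowed a check of the array within the pathway. The Atoh1 probes stood at 0.0030 ± 0.0053 and 0.016 ± 0.012, and only the first was above background. The Maml1 probes stood at -0.017 ± 0.022 and -0.0051 ± 0.022, and the second was above background on 1 array in either channel. The 2 Rbpj probes stood at -0.027 ± 0.013 and -0.015 ± 0.0079 with the offset, and at -0.28 and -0.41 without it. Both were dim, so these values show how far the offset sets the ratio of spots close to background. In the same way Jag1 and Hes5, above background on no array, had means of 0.41 and 0.27 without the offset and of 0.018 and 0.021 with it.

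The summed normalised level of the 4 Id genes in the mutant was 1111 in pool 1, 910 in pool 2 and 692 in pool 3, and in the reference channel it was 1228, 906 and 668. The reference RNA was the same each time, so this sum cannot be read across arrays, only the ratio within an array. From pool 1 to pool 3 the log2 reference level of Id4 fell from 9.97 to 8.07. That of Id3 rose from 6.21 to 7.98. Id1 was steady at 6.274, 6.299 and 6.203, and Id2 at 6.212, 6.205 and 6.185, so the shift lies in the Id3 and Id4 spots.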
